A study of Mus musculus with 12 samples.

Results

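Of the 20325 genes in the files, 9 are described here that lie next to one another at 4 places in the mouse genome and whose RNA was higher with ascorbic acid (AA) than with the DMSO control. They are Dppa4, Dppa2 and Morc1 on chromosome 16, Triml2 and Zfp42 on chromosome 8, Dppa5a and Ooep on chromosome 9, and Acsbg2 and 1700061G19Rik on chromosome 17. The 9 genes were chosen by their position and by their values in the comparison of AA with DMSO, so their values in that comparison are a description and carry no test. The cells were pre-iPSCs, mouse cells halted partway through reprogramming. The study describes making such lines from embryonic fibroblasts carrying a Nanog-GFP reporter and retroviruses for Oct4, Sox2, c-Myc and Klf4. Its methods also name source fibroblasts and astrocytes that were heterozygous for R26 rtTA and held these factors in a single cassette. The cells were kept on irradiated feeder cells, then moved off the feeder layer and treated for 48 h in serum-containing ESC medium with DMSO, with AA at 50 µg/ml, with 2i (a MEK inhibitor at 1 µM and a GSK inhibitor at 3 µM) or with AA and 2i together (AA+2i). Each of the 4 conditions has 3 RNA libraries, with the letters A, B and C, so there are 12 in all, and the labels describe every one as a partially reprogrammed line without naming the clone. Beyond calling them biological triplicates the labels do not say how the replicates were separated, so the p-values measure the spread between these cultures.

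Most of these genes belong to the group that pluripotent cells and germ cells express and somatic cells keep silent. Dppa2 and Dppa4 are partner proteins with a SAP DNA-binding domain that sit on chromatin in early embryos and embryonic stem cells, and Morc1 is an ATPase that helps to silence transposons in male germ cells. Zfp42, also called Rex1, is a zinc finger protein used as a marker of naive pluripotency, and Triml2 encodes a tripartite motif-like protein. Dppa5a (Esg1) and Ooep are related KH-domain proteins, the first known from stem cells and the second from the subcortical maternal complex of the oocyte. Acsbg2 is a bubblegum-family acyl-CoA synthetase of the testis, and 1700061G19Rik is listed in RefSeq as Acsbg3, a member of the same family. AA is a cofactor of the iron-dependent dioxygenases that include the Tet enzymes and many histone demethylases.

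The genes of each place were close together in the annotation of the mm9 build (GENCODE vM1). Dppa4 (chr16:48283848-48294405), Dppa2 (chr16:48310590-48319836) and Morc1 (chr16:48431350-48631018) all lay on the plus strand. A gap of 16.2 kb separated Dppa4 from Dppa2, and 112 kb separated Dppa2 from Morc1. Triml2 (chr8:44265895-44279235, plus strand) and Zfp42 (chr8:44380422-44392363, minus strand) pointed toward each other across 101 kb, with 1 annotated protein-coding gene, Gm2221, between them that has no row in the files. Dppa5a (chr9:78214859-78215984) and Ooep (chr9:78223916-78226532) were both on the minus strand, 7.93 kb apart. Acsbg2 (chr17:56982526-57013870, minus strand) and 1700061G19Rik (chr17:57014900-57028327, plus strand) stood head to head, with 1.03 kb between their starts. None of the annotated genes overlapped its neighbour, which matters because the reads were counted without regard to strand.

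Promoter sequence was found in the RefSeq table (GRCm38.p6) for 3 of the 9 genes, Triml2, Zfp42 and Ooep. The 250 bases before the start of each are shown because these are the stretches in which CpG sites, the sites of DNA methylation, can be counted, and the CpGs are in capitals. Each is written 5′ to 3′ along the strand of its gene, Triml2 from chr8:43180286-43180535 (plus strand), Zfp42 from chr8:43307010-43307259 (minus strand) and Ooep from chr9:78378589-78378838 (minus strand).
Triml2: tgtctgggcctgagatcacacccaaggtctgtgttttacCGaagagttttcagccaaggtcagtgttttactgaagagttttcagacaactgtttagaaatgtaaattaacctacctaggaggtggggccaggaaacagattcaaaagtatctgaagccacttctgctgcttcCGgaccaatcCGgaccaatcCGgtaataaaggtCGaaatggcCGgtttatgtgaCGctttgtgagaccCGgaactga
Zfp42: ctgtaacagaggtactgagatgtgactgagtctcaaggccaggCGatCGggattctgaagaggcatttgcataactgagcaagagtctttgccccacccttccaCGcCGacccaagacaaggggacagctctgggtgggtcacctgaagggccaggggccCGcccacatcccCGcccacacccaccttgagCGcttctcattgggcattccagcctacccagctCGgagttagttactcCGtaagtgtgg
Ooep: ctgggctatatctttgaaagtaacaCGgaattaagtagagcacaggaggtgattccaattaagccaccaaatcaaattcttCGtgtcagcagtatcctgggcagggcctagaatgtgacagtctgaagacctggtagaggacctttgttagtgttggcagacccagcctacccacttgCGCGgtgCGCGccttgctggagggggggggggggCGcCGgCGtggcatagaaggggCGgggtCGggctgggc
The window held 8 CpGs in Triml2, 9 in Zfp42 and 11 in Ooep, beside a median of 6 over 32851 promoters. As many CpGs or more were found in 43.0% of all promoters for Triml2, in 40.3% for Zfp42 and in 35.6% for Ooep, so none of the 3 stood out by its CpG count. The octamer ATTTGCAT, the motif to which Oct4 and other POU proteins bind, was searched on both strands and was present in the window of Zfp42, 186 bases before the start (position -186 for its first base), as gaagaggcATTTGCATaactgagc with the motif in capitals. That motif was in 1.60% of all promoters. CACGTG, an E-box (6.02% of promoters), and GCGGGAA, a sequence that E2F6 binds (3.82%), were not in these 3 windows on either strand. No DNA methylation or binding was measured in these libraries.

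Expression is given as TPM, which scales each library to the same total and each gene to its length. At the chromosome 16 locus the 3 genes were low with DMSO and with 2i and higher in each library with AA, alone or with 2i. Dppa4 was at 0.08, 0.21 and 0.56 TPM in DMSO A, B and C, and at 3.93, 4.17 and 8.09 TPM with AA. With 2i it was at 0.19, 0.06 and 0.27 TPM, and with AA+2i at 1.45, 1.90 and 2.22 TPM. The 3 AA+2i libraries were thus above all 6 libraries without AA and below all 3 with AA alone. Dppa2 followed the same order from a similar base, with 0.51, 0.37 and 0.94 TPM for DMSO, 16.20, 11.64 and 18.12 for AA, 0.25, 0.17 and 0.16 for 2i and 3.83, 4.43 and 4.44 for AA+2i. For Morc1 the DMSO libraries held 10.60, 5.85 and 11.79 TPM and the AA libraries 165.33, 86.80 and 77.27 TPM, of which A was the highest. Its 2i libraries held 5.34, 3.12 and 3.55 TPM and its AA+2i libraries 34.96, 39.20 and 22.96 TPM. Morc1 was therefore the most abundant of the 3 in every condition, and it was at 3.12 TPM or more in the libraries without AA, where its neighbours were at 0.94 TPM or less.

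At the chromosome 8 locus Zfp42 was at 1.71, 2.29 and 3.10 TPM with DMSO and at 12.46, 14.68 and 20.35 with AA. The 2i libraries held 0.70, 1.16 and 1.38 TPM of Zfp42 and the AA+2i libraries 5.79, 7.34 and 7.01 TPM. Its 4 conditions did not overlap, in the order AA, AA+2i, DMSO and 2i. Triml2 was near the limit of detection without AA, with 0.08, 0 and 0.08 TPM for DMSO and 0.07, 0 and 0.14 for 2i. It was at 0.80, 0.82 and 1.04 TPM with AA and at 0.89, 1.49 and 1.08 TPM with AA+2i, and these 6 libraries overlap. These levels rest on few reads, at most 33 counts in a library, 2 counts over the 3 DMSO libraries and 3 over the 3 2i libraries.

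The chromosome 9 locus held the most abundant of the 9 genes. Dppa5a was at 45.11, 35.58 and 78.77 TPM with DMSO and at 1419.03, 1231.89 and 1664.57 TPM with AA. It was at 26.17, 19.08 and 25.04 TPM with 2i and at 511.37, 763.04 and 746.73 TPM with AA+2i, again without overlap between any 2 conditions. Ooep, whose start lies 10.5 kb away, was close to Dppa5a with DMSO, at 29.43, 21.90 and 53.28 TPM, but reached only 112.10, 95.22 and 152.04 TPM with AA. It was at 8.70, 8.62 and 8.58 TPM with 2i and at 31.77, 43.65 and 35.90 TPM with AA+2i, so that its AA+2i libraries lay within the range of the DMSO libraries. RSEM, which divides a read that fits several genes among them, gave whole-number counts (within 0.005) for Dppa5a in 2 of the 12 libraries and for Ooep in 0 of 12, so part of both values rests on reads shared with other sequences. Whole-number counts were found for Morc1 in 4 libraries, Acsbg2 in 6, Zfp42 in 7, Dppa2 and 1700061G19Rik in 9, Dppa4 in 10 and Triml2 in 11.

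At the chromosome 17 locus 1700061G19Rik was at 0.55, 1.06 and 0.74 TPM with DMSO and at 9.33, 13.07 and 16.87 TPM with AA. With 2i it was at 0.43, 0.55 and 0.84 TPM and with AA+2i at 9.79, 10.59 and 12.17 TPM, so the libraries fell into a low and a high set according to AA, with overlap inside each set. Acsbg2 had no read in the 3 DMSO libraries and 2 counts over the 3 2i libraries (0.04, 0.03 and 0 TPM). It was at 0.40, 0.58 and 1.05 TPM with AA and at 0.26, 0.28 and 0.49 TPM with AA+2i. Its highest count in a library was 42.01, so both low-count genes, Acsbg2 and Triml2, are carried by the libraries with AA. Because these are bulk samples, more cells with a gene on and more RNA per cell cannot be told apart for any of the 9 genes.

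**Figure D1:**
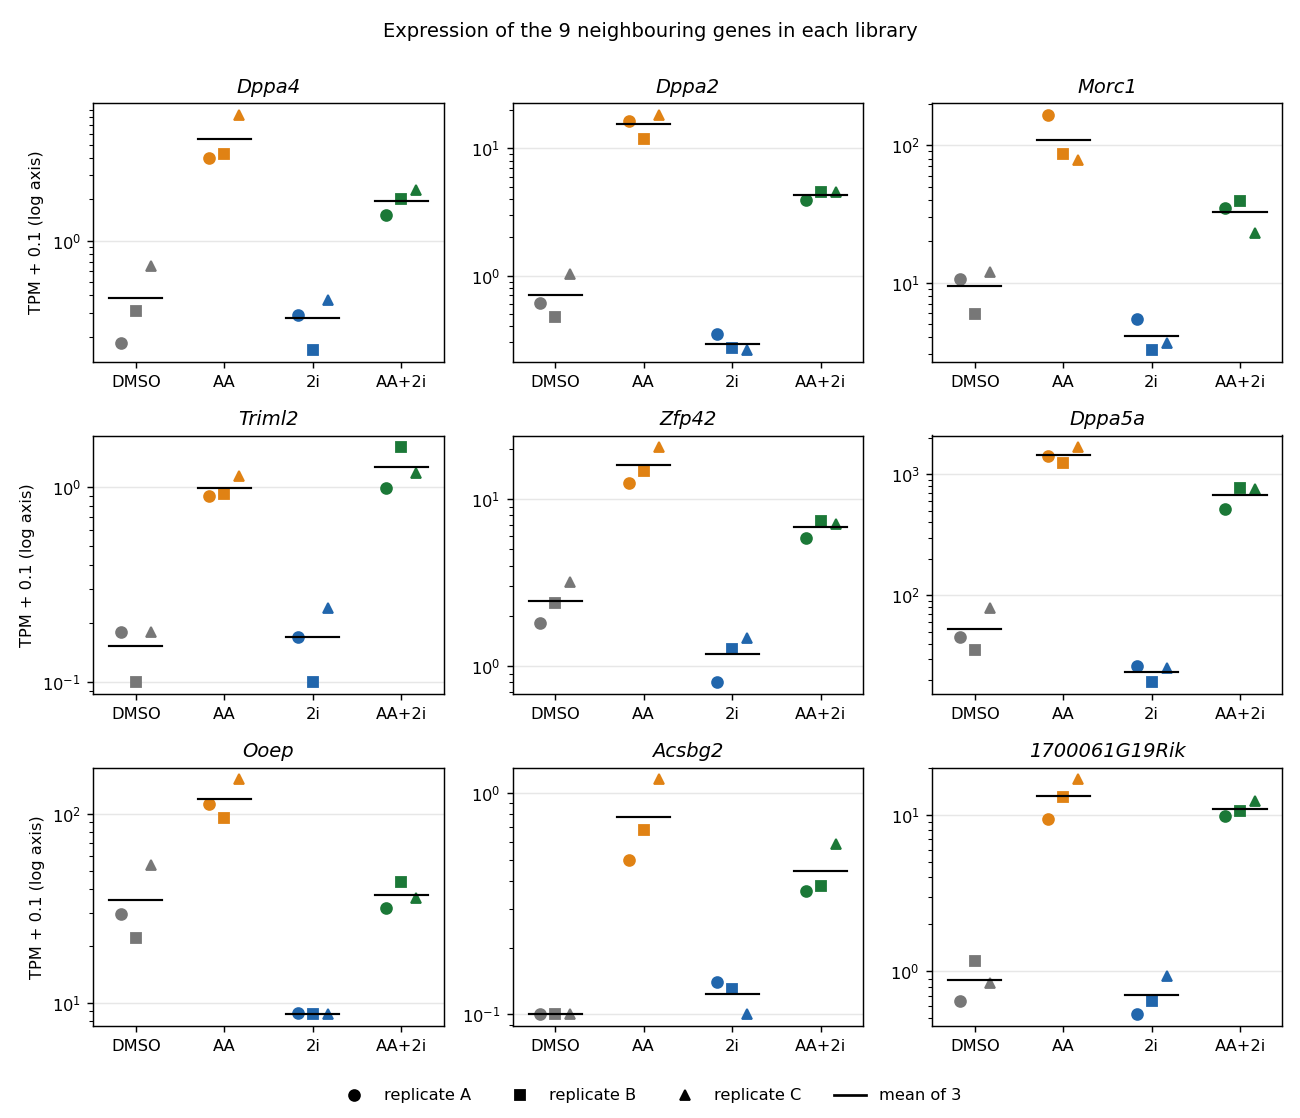
Each panel plots 1 gene in the 12 libraries by condition, as TPM + 0.1 on a log axis, with a symbol for each replicate and a line at the mean of 3. In all 9 panels the AA+2i libraries lie above the 2i libraries, and in 6 panels, those of Dppa4, Dppa2, Morc1, Zfp42, Dppa5a and Ooep, they lie below the AA libraries, beside 9.72% and 16.8% of all tested genes.

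In the comparison on which the genes were selected, AA against DMSO, the mean TPM was 27.1-fold higher for Dppa5a, 25.3-fold for Dppa2, 16.7-fold for 1700061G19Rik, 11.7-fold for Morc1, 6.69-fold for Zfp42 and 3.44-fold for Ooep. For Dppa4 the mean was 0.283 TPM with DMSO and 5.40 TPM with AA. For Triml2 the ratio of counts pooled over the 3 libraries of each condition, scaled by their summed depth, was 26.1 (95% exact counting interval 6.97 to 221). Its mean TPM was 16.6-fold higher. Acsbg2, with no read in DMSO, was at least 23.9-fold higher, taking the DMSO group at a floor of 3 counts over its 3 libraries. Intervals and floors cover counting error only. Among all tested genes, 0.866% were called higher with AA than with DMSO, a share given only for reference since this comparison chose the 9.

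AA+2i against 2i asks whether AA has the same genes higher when 2i is present, and its fold changes use none of the DMSO or AA libraries. The 9 genes were chosen with earlier results of these data known, so this comparison is not an independent test of them. The count filter and the estimate of the spread between replicates do use all 12 libraries. Of the 9 genes, 8 rose and 0 fell in edgeR's quasi-likelihood test, with Benjamini-Hochberg adjustment over 13400 genes and a threshold of 0.05 on the adjusted p. Over all tested genes 0.761% were called up (102 genes) and 0.149% down (20 genes), and the median log2 fold change over all genes was 0.00063. The median over the 9 was 3.76, which is the value of Acsbg2, the gene that was not called. The 9 ran from 2.12 for Ooep to 4.88 for Dppa5a, and in each of them all 3 AA+2i libraries were above all 3 2i libraries in TPM, as in 9.72% of all tested genes. Of the 9, the 4 genes Dppa4, Dppa2, Triml2 and Acsbg2 passed the filter of at least 10 counts in at least 3 libraries only through libraries with AA, which favours a difference in that direction, so their calls carry less weight. The other 5 (Morc1, Zfp42, Dppa5a, Ooep and 1700061G19Rik) had at least 10 counts in all 12 libraries, and all 5 rose, by 2.12 to 4.88. When filter and spread were taken from the 6 AA+2i and 2i libraries alone, 8 of the 9 were tested (Acsbg2 was not) and 8 rose. In that fit Dppa4, Dppa2 and Triml2 again passed the filter only through the libraries with AA, so the same limit holds for them.

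Dppa5a had the smallest p of all tested genes, with 4.88 on the log2 scale (standard error 0.39, edgeR adjusted p = 0.0010). Next came 1700061G19Rik, at rank 2 of 13400, with 4.18 (0.39, edgeR adjusted p = 0.0014). Dppa2 stood at rank 5 with 4.47 (0.44, edgeR adjusted p = 0.0014), and its neighbours Morc1 and Dppa4 changed by 3.02 (0.39, adjusted p = 0.0052) and 3.46 (0.68, adjusted p = 0.0403). At the chromosome 16 locus all 3 thus passed the threshold, Dppa4 narrowly, and of the 3 only Morc1 reached the count filter without libraries with AA. On chromosome 8, Zfp42 changed by 2.64 (0.38, adjusted p = 0.0076) and Triml2 by 4.06 (0.76, adjusted p = 0.0331), and the count ratio of Triml2 was 18.8 (95% exact counting interval 6.12 to 93.5). Ooep had the smallest change, 2.12 (0.36, edgeR adjusted p = 0.0225). Acsbg2 did not pass, at 3.76 (0.82, adjusted p = 0.0816, edgeR; range over the alternatives 0.0109 to 0.958), with a count ratio of 15.2 (3.89 to 131). The calls depended on single replicates. Without replicate A, 4 of the 9 were called (1700061G19Rik, Dppa2, Dppa5a and Morc1), while without B and without C there were 0, and in those fits edgeR called 0 of all 12866 and 13091 genes (524 and 803 at an unadjusted p under 0.05). Those of the 9 that were tested in these fits, 9 without B and 8 without C, all had an unadjusted p under 0.05 and a positive log2 fold change.

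The log2 fold change with AA was set beside its value without 2i for each gene. The change with 2i present less that without it was -0.88 for Dppa4, -0.50 for Morc1, -0.30 for Triml2, -0.24 for Dppa2, -0.13 for Zfp42, 0.08 for 1700061G19Rik, 0.12 for Dppa5a and 0.34 for Ooep. Each of these 8 differences is smaller than 1 on the log2 scale, but no limit for agreement was set beforehand. The standard errors of the fold changes without and with 2i were 0.64 and 0.68 for Dppa4 and 0.82 and 0.76 for Triml2. The differences of these genes are thus poorly determined. Triml2 had 2 counts over the DMSO libraries and 3 over the 2i libraries, so its fold changes also depend on the prior count. Acsbg2 is left out because DMSO had no read of it, so its fold change against DMSO depends on the prior count. The differences are given without a test since 1 side of each difference chose the genes.

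**Figure D2:**
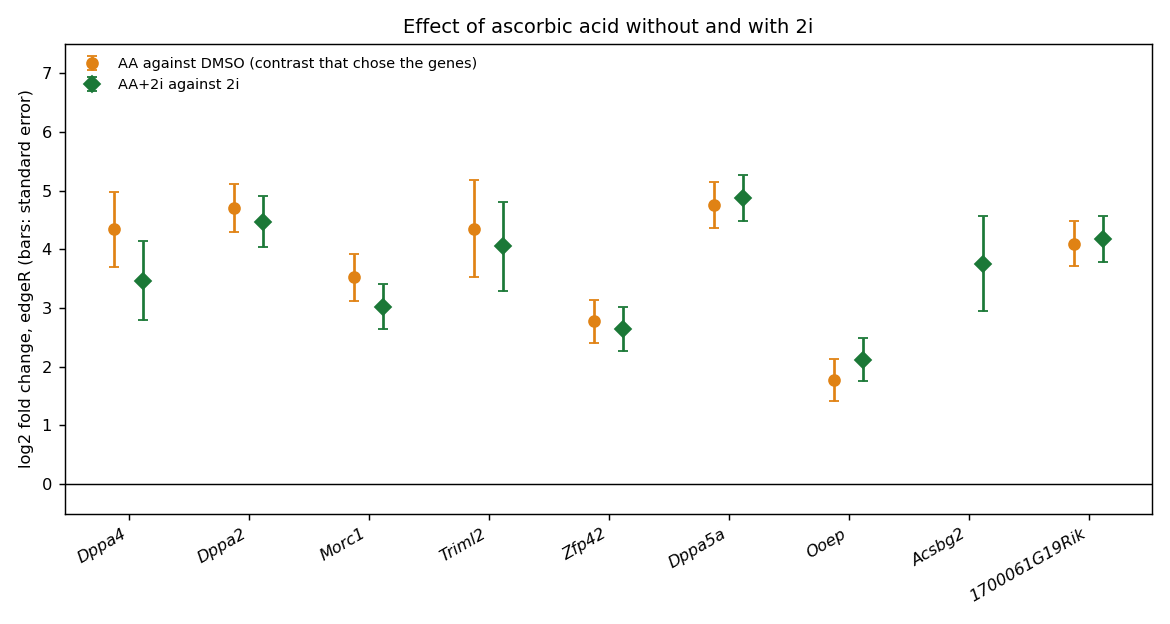
The log2 fold change of each gene from edgeR is plotted with its standard error for AA against DMSO, which chose the genes, and for AA+2i against 2i. The value of Acsbg2 against DMSO is not drawn, and the other 8 pairs of points lie within 0.88 of each other.

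The level reached with AA+2i differed from that with AA alone by amounts that were not shared by all neighbours. AA+2i held 27.6% of the AA level for Dppa2, 29.5% for Morc1, 31.0% for Ooep, 34.4% for Dppa4, 42.4% for Zfp42 and 46.8% for Dppa5a, and for these 6 genes all AA+2i libraries were below all AA libraries, as in 16.8% of all tested genes. For the other 3 the libraries overlapped, at 50.7% for Acsbg2, 82.9% for 1700061G19Rik and 130% for Triml2. At the chromosome 8 locus Zfp42 was thus lower with AA+2i than with AA, while the order for Triml2 is not settled. Triml2 had 62.59 counts over the 3 AA libraries and 61 over the 3 AA+2i libraries. Its log2 fold change for AA+2i against AA was 0.55 (standard error 0.53, edgeR).

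Without AA, 2i had the lower level in 5 of the 9, Dppa2, Morc1, Zfp42, Dppa5a and Ooep, with no overlap with DMSO, as in 14.7% of all tested genes. The DMSO mean was 4.04-fold the 2i mean for Ooep, 3.14-fold for Dppa2, 2.35-fold for Morc1, 2.27-fold for Dppa5a and 2.19-fold for Zfp42. The other 4 overlapped. Against DMSO, AA+2i was higher in all libraries for 8 genes, as in 9.6% of all tested genes, from 2.84-fold for Zfp42 to 13.9-fold for 1700061G19Rik among the 6 with more than 3 counts in DMSO, and Acsbg2 was at least 14.3-fold higher. Ooep, at 1.06-fold, was the gene that overlapped. These comparisons share the DMSO or AA libraries that chose the genes and were not tested.

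The ratio between neighbours was compared within each library. The ratio of Dppa5a to Ooep, as log2 of (TPM + 0.1), was 0.61, 0.70 and 0.56 with DMSO and 3.66, 3.69 and 3.45 with AA. With 2i it was 1.58, 1.14 and 1.53, and with AA+2i 4.004, 4.12 and 4.37. Dppa5a thus stood higher relative to the gene beside it in all libraries with AA, by 2.75 on the log2 scale between 2i and AA+2i (standard error 0.18) and by 2.98 between DMSO and AA. An exact two-sided permutation test of 3 against 3 libraries gave p = 0.1 for the former, the smallest it can give (0.125 after adjustment over the 5 neighbouring pairs).

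In the chromosome 16 group the ratio of Dppa4 to Dppa2 changed by -0.99 between 2i and AA+2i (0.38, exact permutation p = 0.1, adjusted 0.125), and that of Dppa2 to Morc1 by 0.91 (0.29, exact permutation p = 0.1, adjusted 0.125). With a pseudocount of 1 in place of 0.1 the latter was -0.60, and with 0.01 it was 1.39. The ratio of Triml2 to Zfp42 changed by 0.37 (0.44, exact permutation p = 0.4, adjusted 0.4), less than its standard error. It had the value 1.85 with a pseudocount of 0.01, -0.90 with a pseudocount of 1 and -0.15 without replicate B. Triml2 had a mean of 0.07 TPM with 2i, below the pseudocount of 0.1, so size and sign of its ratio depend on the pseudocount. Its edgeR log2 fold change was 4.06, beside 2.64 for Zfp42. The head-to-head pair on chromosome 17, Acsbg2 to 1700061G19Rik, changed by -2.17 (0.41, exact permutation p = 0.1, adjusted 0.125), and at a pseudocount of 0.01 the value was -0.54. Acsbg2 had a mean of 0.023 TPM with 2i, below the pseudocount of 0.1, so the size of this change depends on the pseudocount. By edgeR the log2 fold changes were 3.76 for Acsbg2 and 4.18 for 1700061G19Rik.

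**Figure D3:**
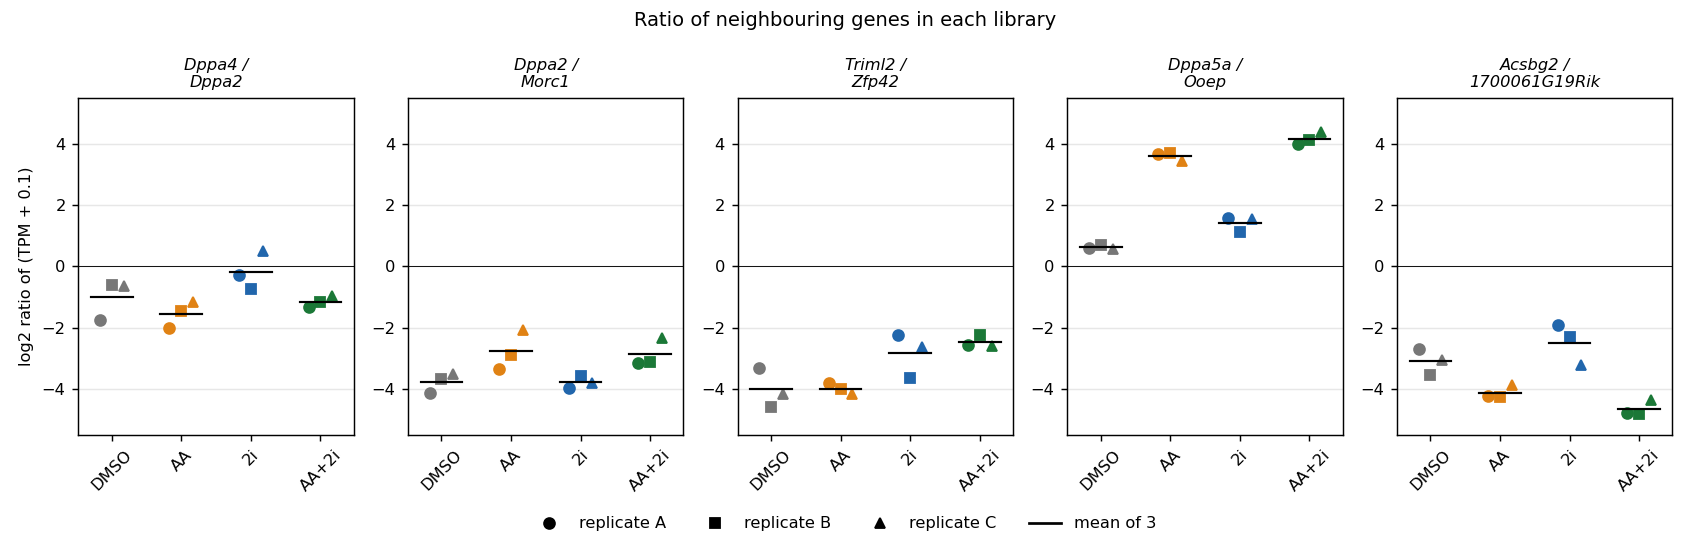
The log2 ratio of the first to the second neighbour, from TPM + 0.1, is plotted for each library by condition, with a line at the mean of 3. In the panel of Dppa5a and Ooep the means run from 0.63 with DMSO and 1.42 with 2i to 3.60 with AA and 4.17 with AA+2i.

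Genes next to these loci were examined as the 3 nearest with a row in the files on each side of each locus, 24 genes in all. Of these, 10 did not pass the count filter, and edgeR called 0 of the other 14 with AA+2i against 2i, with a median log2 fold change of 0.30. Not all of the 14 were close. The tested genes of the chromosome 16 locus were Pvrl3, Cd96 and Plcxd2, 1785, 2163 and 2274 kb away. Those of the chromosome 8 pair were Triml1, Zfp353 (1096 kb away) and Frg1 (1763 kb away). Except for Triml1, no close neighbour of these loci was tested. At an unadjusted p under 0.05 there were 3 (Triml1, Rfx2 and Ddx43), and DESeq2 and limma each called 1, Triml1. Triml1, a relative of Triml2 that lies 39.1 kb outside the chromosome 8 pair, was at 0, 0 and 0 TPM with 2i and at 0.38, 0.74 and 0.85 TPM with AA+2i. With DMSO it was at 0, 0 and 0.07 TPM and with AA at 0.28, 0.21 and 0.70 TPM, so its libraries with AA were above those without, like those of Triml2. It had at most 21 counts in a library and was at least 13.8-fold higher with AA+2i than with 2i (floor of 3 counts over the 2i group). Its adjusted p was 0.0510 (edgeR), and it was called in 6 of the 8 alternatives that tested it (range 0.00134 to 0.170).

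Around the other loci the differences of the tested flanking genes, the nearest on each side, were smaller than those of the 9. Mllt1, 3.71 kb from 1700061G19Rik, differed by 0.29 (0.63, adjusted p = 0.969, edgeR), and Rfx2, 12.1 kb from Acsbg2 and a transcription factor of ciliated and germ cells, by 1.33 (0.60, adjusted p = 0.520, edgeR). Ddx43, a helicase gene 17.1 kb from Ooep, differed by 0.73 (0.31, adjusted p = 0.477, edgeR). Rfx2 passed with the correction for GC content, and Ddx43 only when that correction was joined with the replicate letter. Gsta2, 11.3 kb from Dppa5a, had at most 6.57 counts and was not tested. Farther out on that side, within 250 kb, Gsta1 differed by 1.88 and Gm10639 by 1.18 between 2i and AA+2i, as log2 of mean TPM + 0.1. On that scale Acsbg2 differed by 1.85, Ooep by 2.09 and Gsta2 by -0.09. Between DMSO and AA, Gsta1 (2.07) and Gm10639 (1.91) were above Ooep (1.78), and Gsta2 (0.98) was below it. These values carry no test. On the chromosome 16 locus the nearest genes with a row beyond Morc1, Trat1, Retnlb and Retnla, were listed at 0 in all 12 libraries, and on the side of Dppa4 the nearest, Pvrl3, was 1785 kb away and differed by -0.32 (0.36, adjusted p = 0.969, edgeR).

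**Figure D4:**
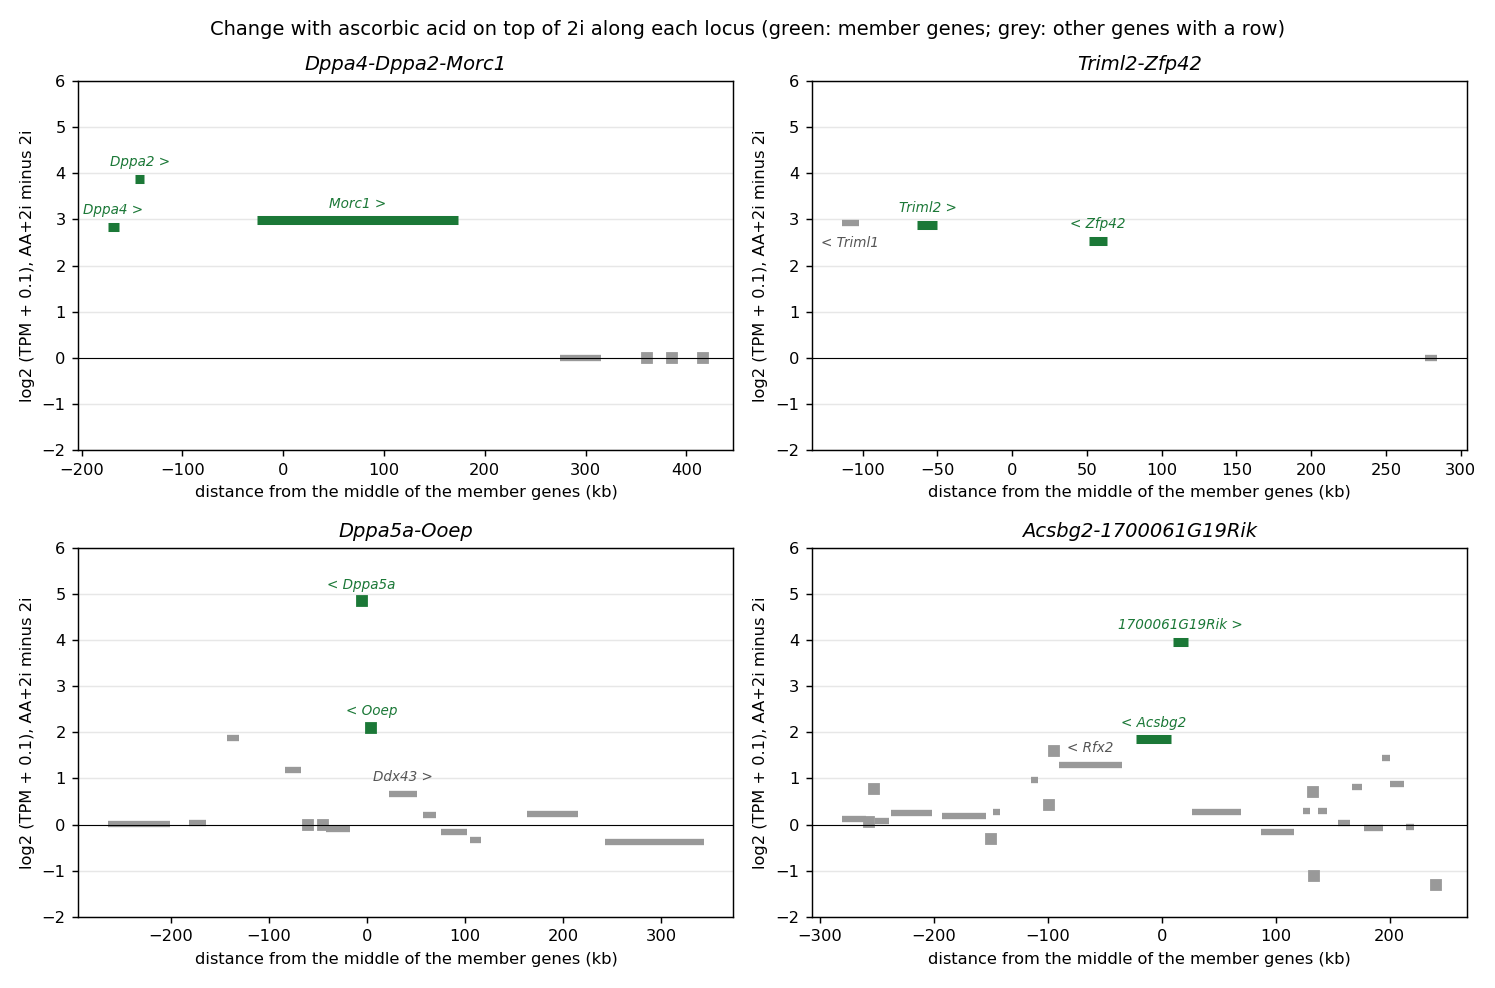
Genes with a row in the files within 250 kb of each locus are drawn at their distance in kb from the middle of the 9 genes' loci (small squares mark short genes), against the log2 difference of mean TPM + 0.1 between AA+2i and 2i. Arrowheads give the strand. The 9 genes (green) lie between 1.85 for Acsbg2 and 4.84 for Dppa5a, Triml1 is at 2.92 beside Triml2, and Gsta1, the highest of the unlabelled grey genes, is at 1.88 in the panel of Dppa5a and Ooep.

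Over the genome, 10506 pairs of adjacent genes had both genes tested. In AA+2i against 2i, both genes of 10 pairs (0.0952%) were called up. Of the 10, 4 were among those described here, Dppa4 with Dppa2, Dppa2 with Morc1, Triml2 with Zfp42 and Dppa5a with Ooep. The other 6 were Gdf3 with Dppa3, Dppa3 with Nanog, Clec4a1 with Clec4a3, Aox3 with Aox4, Serpina3k with Serpina3m and Gstk1 with Tmem139.

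Other genes linked to these by function were counted in lists that were drawn up with earlier results of these data known. Of 21 tested pluripotency-associated genes 5 rose and 0 fell with AA+2i against 2i, with a median log2 fold change of 0.62. They were Dppa3 at 5.63 (0.78, adjusted p = 0.0073, edgeR), the growth factor gene Gdf3 at 3.66 (0.37, adjusted p = 0.0019), the nuclear receptor gene Esrrb at 3.58 (0.53, adjusted p = 0.0102), Nanog at 2.61 (0.35, adjusted p = 0.0063) and the Nodal co-receptor gene Tdgf1 at 2.20 (0.27, adjusted p = 0.0043). Their levels with AA and AA+2i were not in 1 order. Tdgf1, like Dppa5a, was higher with AA, at 391.91, 287.85 and 381.21 TPM, than with AA+2i, at 114.43, 144.13 and 121.37 TPM, and Gdf3 overlapped, with means of 44.4 and 41.1 TPM. Dppa3 was at 0.80, 0.92 and 3.20 TPM with AA and at 9.18, 12.77 and 19.44 with AA+2i, and Esrrb at 0.37, 0.47 and 1.22 and at 2.33, 2.53 and 2.73 TPM, with no overlap in either gene. Nanog had the same order, at 19.6, 16.8 and 17.1 TPM with AA and 37.08, 40.92 and 31.73 TPM with AA+2i.

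Dppa2 and Dppa4 are known as activators of genes of the 2-cell embryo such as the Zscan4 family, and these stayed near 0. Of 10 such genes in the files 1 passed the count filter, Zfp352, at 0.49 (0.98, edgeR adjusted p = 0.969), and the summed TPM of the 10 was at most 1.54 in a library. Germline genes, the class to which Morc1 belongs, had 5 of 19 tested, of which 2 rose and 0 fell. These were Tex19.1 at 3.75 (0.50, adjusted p = 0.0064, edgeR) and Piwil2, a partner of piRNAs, at 2.08 (0.28, adjusted p = 0.0064). Of 3 tested genes of the subcortical maternal complex and oocyte, partners of Ooep, edgeR called 0, with 1 at an unadjusted p under 0.05 (Nlrp4f at -1.38, standard error 0.58), and DESeq2 and limma called 0. Of 12 tested relatives of the 9 genes, including Acsbg1, Morc2a, Morc3 and Yy1, edgeR called 0, with 2 at an unadjusted p under 0.05 (Morc4 and Triml1), and DESeq2 called 1, Triml1. Their median log2 fold change was -0.19, and Acsbg1 differed by -0.43 (0.40, edgeR adjusted p = 0.969).

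The genes with the pattern most like that of the 9, by Pearson's r of log2(TPM + 1) with their mean z-score over 12 libraries, were Dmrtc1b (0.987), Tex19.1 (0.986), Gng4 (0.985), Clec4a3 (0.976), Alox15 (0.973) and Otx2 (0.970). The points share their 12 libraries and 4 conditions, so the r values are a description. Against the mean of the other 8, the r of each of the 9 ran from 0.863 for Ooep and 0.867 for Triml2 to 0.987 for Dppa5a.

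The libraries held between 16173322 and 54392719 expected counts, with DMSO B and AA B the deepest. Of 6 genes of reprogramming intermediates, Fut4 was near 0 (at most 0.12 TPM) and Lin28a between 0.48 and 8.33 TPM, while Pou5f1, which is also among the introduced factors (Oct4), Sall4, Cdh1 and Epcam were at 22.17 TPM or more in every library. Epcam and Cdh1 both rose with AA+2i against 2i (1.35 and 1.21, adjusted p = 0.0381 and 0.0175, edgeR). Of 10 fibroblast or feeder markers, 7 were tested and edgeR called 0, with 2 at an unadjusted p under 0.05 (Thy1 and Postn), and DESeq2 called 1, Thy1, while Lum was at 0 throughout. Their summed TPM was 6.79 to 15.2 with DMSO, 10.6 to 20.0 with AA, 6 to 6.30 with 2i and 7.67 to 10.9 with AA+2i. Thy1, the fibroblast surface marker, had means of 5.13, 12.6, 1.15 and 3.80 TPM with DMSO, AA, 2i and AA+2i, a log2 difference of 1.71 with AA+2i against 2i, whereas Postn, Pdgfrb and Prrx1 differed by -2.90, -0.86 and -0.13, and Col1a1, Col1a2 and Col3a1 by 0.53, 0.58 and 0.69. The libraries also differed in how counts depended on GC content, with DMSO A at -1.85 (log2) from their mean at 60% GC. There 2i A, B and C stood at -0.60, 0.20 and 0.84, and AA+2i A, B and C at 0.50, -0.02 and 1.11. The transcripts of the 9 genes had 43.9% to 53.7% GC. With a GC correction all 9 were called up by edgeR, beside 373 genes up and 154 down among the 13400 tested. The part that Thy1, depth and GC content have in the results was not tested otherwise.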

How the data were processed

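The authors removed adapters, the first bases of each read and reads of low quality, aligned the rest with Bowtie to the RefSeq genes of mm9 and estimated expression with RSEM 1.2.4 without regard to strand. The deposited expected counts are RSEM's estimates, unnormalised and often fractional. The TPM deposited by the authors are scaled within each library. From the deposited FPKM, 1 malformed TPM cell was recomputed, in no gene named here. Rounded counts entered edgeR 4.0.16 (R 4.3.3), with RLE factors and quasi-likelihood dispersions, in a single model of the 4 conditions with 8 residual degrees of freedom. A minimum of 10 counts in 3 or more libraries left 13400 genes. P-values were adjusted by Benjamini-Hochberg, and the threshold was 0.05. The study used EB-seq. Each standard error was obtained from the log2 fold change and its F statistic. Exact permutation tests and intervals used scipy 1.17.1. Limma 3.58.1 on log2(TPM + 1), DESeq2 1.42.0, other filters and factors, a correction for GC content (known for 13301 tested genes, loess span 0.4), a replicate block and leaving out each letter were alternatives. The fit was tested on simulated data.

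The 9 genes and the gene lists were chosen with earlier results of these data known. Named are the 9 genes, the 3 nearest genes with a row on each side of each locus, the 6 genes most like their pattern, and listed genes called in AA+2i against 2i (at most 6 per list). Other genes named, such as Nlrp4f, Morc4, Postn and those of adjacent pairs, were chosen after their values were seen.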

Additional observations from a re-analysis of the deposited data

How the results depend on the processing

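The number of genes called in AA+2i against 2i, 122 with the reported settings, depended on the test. It was 468 with DESeq2, 527 with the GC correction, 74 with at least 10 counts in every library and 0 to 12 when 1 replicate letter was left out. With the replicate block it was 606, and 1384 with the block and the GC correction together. The letters share only a letter by the labels. Deviations from the condition means correlated at a mean of 0.401 over the 18 same-letter pairs of libraries, with a range from -0.588 to 0.894, and at -0.196 over the 36 different-letter pairs. The 2 means are not separate evidence, since the deviations of the 3 libraries of a condition sum to 0. The main model left the letter out because the labels do not say what it marks and not every same-letter pair correlated. Whether libraries of a letter share a batch was not tested. With the block all 9 genes were called, and for the neighbour ratios the paired exact permutation cannot go below 0.25. The filter of 10 counts in every library left 5 of the 9 genes, of which 5 were called. Leaving out a letter gave 0 to 4 of the 9. The remaining alternatives called 8 or 9, and no fold change of the 9 changed sign where tested. Of the neighbour ratios, 3 values reversed, Dppa2 to Morc1 at -0.60 and Triml2 to Zfp42 at -0.90 with a pseudocount of 1, and Triml2 to Zfp42 without replicate B at -0.15 (0.73 without A). With a pseudocount of 0.01 the ratio of Dppa2 to Morc1 changed by 1.39 and that of Triml2 to Zfp42 by 1.85. Dppa2 and Triml2 had means of 0.193 and 0.07 TPM with 2i, far below a pseudocount of 1, so the sign of these ratios depends on the pseudocount. The cause of the reversal without replicate B was not tested. Depth limits Triml2, Acsbg2 and Triml1, whose highest counts in a library were 33, 42.01 and 21.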
